A study of Mus musculus with 7 samples.

Results

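The leucine four-codon box is the group of leucine codons that start with CU and end with any base. It is read by the anticodon pools Leu-AAG, Leu-CAG and Leu-TAG, where T stands for U in the RNA. These 3 pools were taken from a table of 52 anticodon pools, and the 10 isodecoders that compose them from a table of 217 cytosolic isodecoders. An isodecoder is a set of tRNA genes with one identical mature sequence, and a pool is the sum of all isodecoders with one anticodon. The members were taken by name and not by their values, though with earlier results of these data known.

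tRNAs were sequenced by QuantM-seq, a method that ligates adapters to mature tRNA ends, in 7 mouse libraries of the strain 129S/SvEv. Oligodendrocyte progenitor cells (OPCs, 3 libraries) were derived from epiblast stem cells and received no differentiation treatment. Oligodendrocytes (OLs, 2 libraries) were differentiated from OPCs with thyroid hormone, T3. Astrocytes (2 libraries) were differentiated from OPCs with BMP4. By the study's methods the OL libraries came from the same cultures as some of the OPC libraries, and the OL cultures kept some undifferentiated OPCs. The tables hold tRNAs alone, so the cell type labels could not be compared with marker genes. In such bulk samples fewer cells of a type and less tRNA per cell cannot be told apart. Levels are in RPM, reads per 1e6 cytosolic and mitochondrial tRNA reads of a library, and libraries held 1339021 to 2627351 such reads.

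Leucine has 6 codons, and the other 2, which start with UU, are read by Leu-CAA and Leu-TAA. Leucine tRNAs, like those for serine and selenocysteine, carry a long variable arm, which sets them apart from most other tRNAs. In the 4-codon box the A at the first anticodon position of Leu-AAG is deaminated to inosine, which pairs with U, C and A. Leu-TAG carries a U there and pairs mainly with A and G, and Leu-CAG pairs with G. Leucine is the most frequent amino acid in mammalian proteins, and the CUG codon read by Leu-CAG is its commonest codon in mammals.

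RefSeq lists 18 nuclear genes for these anticodons on GRCm38, the assembly also called mm10, with 5 genes for Leu-AAG, 10 for Leu-CAG and 3 for Leu-TAG. The names of the 10 isodecoders hold the same numbers of gene copies. Each Leu-CAG gene spans 83 bases, and each Leu-AAG and Leu-TAG gene 82. None overlapped an exon in the GENCODE annotation, 16 lay between genes and 2 lay in introns. The intronic genes were n-TLcag1 within Naaladl2 (chr3:24163025-24163107) and n-TLcag2 within Sgcz. A group of 5 Leu-CAG genes lay on chromosome 1, with n-TLcag3 at chr1:171038614-171038696 as the first and n-TLcag9 at chr1:171101838-171101920 as the last. The Leu-TAG gene n-TLtag1 (chr7:120835479-120835560) and the Leu-AAG gene n-TLaag4 (chr7:120917517-120917598) share a stretch of chromosome 7. Because the tables do not pair isodecoder numbers with genes, no isodecoder is placed here.

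The n-TLaag4 gene ends 180 bases before the start site of Polr3e, which encodes a subunit of RNA polymerase III, the enzyme that transcribes tRNA genes. The promoter window of Polr3e in RefSeq therefore holds 71 of the 82 bases of the gene (chr7:120917528-120917598, plus strand, GRCm38.p6). They are shown because they carry the anticodon that names the pool. Capitals mark the anticodon, at positions 35 to 37 of the gene, which lies between the paired strands of the anticodon stem.
n-TLaag4: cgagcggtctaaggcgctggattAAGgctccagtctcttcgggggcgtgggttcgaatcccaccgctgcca
The internal promoter element of tRNA genes known as the B box began at position 61 of the gene. Its consensus was searched on both strands of the 32851 promoter windows of the same table and found in 86 of them, 0.262%.

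Levels followed one order in all 7 libraries, Leu-CAG above Leu-TAG above Leu-AAG, and no library of one pool overlapped another pool. Leu-CAG read 12414, 11171 and 12074 RPM in the OPC libraries, 12918 and 13552 RPM in the OL libraries, and 12986 and 14025 RPM in the astrocyte libraries. Every OL and astrocyte library was above every OPC library. Leu-TAG read 6211, 5502 and 5451 RPM in OPCs, 6254 and 7067 RPM in OLs, and 5421 and 6342 RPM in astrocytes. Both OL libraries were above the OPC libraries, the lower one by little, and the astrocyte libraries spanned them. Leu-AAG read 2173, 1853 and 2455 RPM in OPCs, 2349 and 2792 RPM in OLs, and 2116 and 2296 RPM in astrocytes. Its OL and astrocyte libraries both overlapped the OPC libraries.

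**Figure D1:**
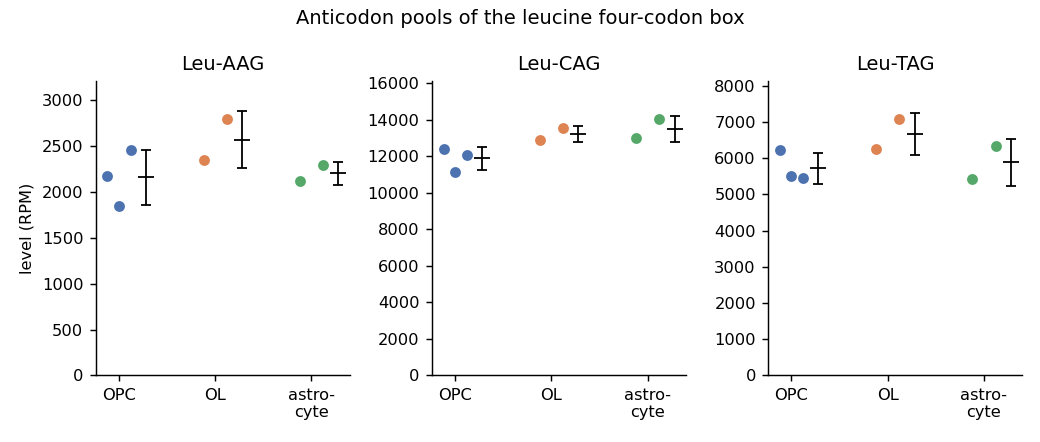
Level in RPM (vertical axes, from 0) of the 3 anticodon pools by cell type. Points are libraries and the bars beside them the mean and SD. Leu-CAG lay higher in every OL and astrocyte library than in any OPC library, while the groups overlapped for Leu-AAG except between OLs and astrocytes.

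Leu-CAG was 2.12 times as abundant as Leu-TAG on average, between 1.92 times in an OL library and 2.4 times in an astrocyte library. It was 5.61 times as abundant as Leu-AAG, with a range from 4.85 to 6.14 times. The make-up of the box varied accordingly, with Leu-CAG at 57.9% to 63.3% of the box over all libraries. Leu-CAG made up 60.1% ± 0.396 of it (SD, n = 3) in OPCs, 59% ± 1.51 (n = 2) in OLs and 62.6% ± 0.982 (n = 2) in astrocytes. The astrocyte values of Leu-CAG, 61.9% and 63.3%, were above those of all other libraries. Leu-TAG made up 28.9% ± 1.44, 29.6% ± 0.798 and 27.2% ± 1.11 of the box in the same groups. Leu-AAG made up 10.9% ± 1.21, 11.4% ± 0.714 and 10.2% ± 0.128. Counting error on such a share, as a 95% Wilson interval, was at most 0.576 percentage points either way. That is less than the SD between libraries of Leu-TAG and Leu-AAG in OPCs. It is more than the SD of Leu-CAG in OPCs and of Leu-AAG in astrocytes, and an interval and an SD are unlike measures.

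In other 4-codon boxes the pools were divided differently. The C-starting anticodon led in leucine alone among the 5 boxes compared. In alanine the A-starting anticodon, Ala-AGC, made up 73.7% of the A, C and T anticodons over all libraries, and in threonine Thr-AGT made up 53.3%. In proline and valine the T-starting anticodons led, Pro-TGG with 67.3% and Val-TAC with 47.7%. Leu-AAG, with 10.9% of its box over all libraries, stood near Val-AAC (11.8%) and above Pro-AGG (2.22%). Mature tRNAs are of similar length, so RPM were compared between tRNAs without division by length. By the study's account, reverse transcription can stop at modified bases, so a read need not span a whole tRNA. Ratios and ranks between tRNAs given here are those of RPM. Whether some tRNAs are captured or read better than others was not tested.

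Gene number and level gave different orders of the pools. Leu-CAG led in both, while Leu-TAG had fewer genes but a higher level than Leu-AAG. Leu-CAG has 55.6% of the 18 genes, Leu-AAG 27.8% and Leu-TAG 16.7%. Divided by gene number, Leu-TAG was the highest with 2012 RPM per gene over all libraries, against 1273 RPM for Leu-CAG and 458 RPM for Leu-AAG. Among the 50 anticodon pools that reached 1 RPM on average, Leu-CAG ranked 28 by level, Leu-TAG 34 and Leu-AAG 43, against 13 for Leu-TAA and 32 for Leu-CAA.

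Leu-CAG and Leu-TAG varied less between libraries than the median pool, and Leu-AAG more. The SD of log2(RPM + 1) over the 7 libraries was 0.11 for Leu-CAG, the tenth lowest of the 50 pools, 0.14 for Leu-TAG and 0.18 for Leu-AAG, beside a median of 0.16 over all pools. Between its lowest and highest library Leu-CAG differed 1.26-fold, Leu-TAG 1.3-fold and Leu-AAG 1.51-fold.

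The first comparison asked whether the box changed when OPCs became OLs. On the log2(RPM + 1) scale the change from OPCs to OLs was 0.16 (SE 0.06) for Leu-CAG, 0.22 (SE 0.096) for Leu-TAG and 0.25 (SE 0.17) for Leu-AAG. None passed the threshold of an adjusted p of 0.01 in limma, which 0% of the 52 pools did, with adjusted p = 0.192, 0.23 and 0.314. The median change of all 52 pools was itself 0.12, so the pools lay 0.04, 0.10 and 0.14 above it. With median-of-ratios scaling that median was 0.02. Counted on RPM, libraries did not overlap for 2 of the 3 pools, beside 48.1% of all pools. Both were higher in OLs, beside 32.7% of all pools. For Leu-TAG the lower OL library, at 6254 RPM, was near the highest OPC library, at 6211 RPM. Overlap of the pools was not counted on another scaling. At an unadjusted p under 0.05 there were 13 of the 52 pools and 0 of the 3. The 95% intervals ran from -0.01 to 0.32 for Leu-CAG, from -0.04 to 0.48 for Leu-TAG and from -0.20 to 0.71 for Leu-AAG, so changes of these sizes were within reach of the data. Reads outside the cytosolic tRNAs took 3.55% to 3.9% of the total in OLs, 4.98% to 6.94% in OPCs and 7.74% to 7.88% in astrocytes, and this moves all cytosolic RPM together.

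Astrocytes were compared with OPCs in the same way. Leu-CAG differed by 0.18 (SE 0.075, adjusted p = 0.351 in limma), Leu-TAG by 0.04 (SE 0.12, adjusted p = 0.895) and Leu-AAG by 0.04 (SE 0.16, adjusted p = 0.912). The median of all pools was 0.00, 0% of the 52 pools passed the threshold, and 6 had an unadjusted p under 0.05. Leu-CAG was the 1 member whose libraries did not overlap, beside 32.7% of all pools. The 95% interval of its difference ran from -0.01 to 0.38.

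Between OLs and astrocytes Leu-CAG differed by -0.03 (SE 0.072, adjusted p = 0.788 in limma), with a 95% interval from -0.21 to 0.15. The values were 0.18 (SE 0.12, adjusted p = 0.469) for Leu-TAG and 0.22 (SE 0.17, adjusted p = 0.519) for Leu-AAG, both higher in OLs. The median of all pools was 0.11, and 0% of them passed the threshold, with 8 of 52 at an unadjusted p under 0.05. Leu-AAG was the 1 member whose libraries did not overlap, beside 57.7% of all pools. The comparisons with OPCs share the OPC libraries, and are given side by side for that reason.

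Within leucine the box held a larger share in every OL and astrocyte library than in any OPC library. The exact permutation test used for this difference cannot pass the threshold with 3 against 2 libraries. The share of the box in leucine tRNA was 34%, 31.4% and 32.7% in OPCs, 35.9% and 37.7% in OLs, and 35.9% and 39.1% in astrocytes. The mean was 32.7% ± 1.29 (SD, n = 3) in OPCs and 36.8% ± 1.28 (n = 2) in OLs, a difference of 4.13 percentage points, with an exact two-sided permutation p of 0.2, or 0.4 adjusted over 6 tests. In astrocytes the mean was 37.5% ± 2.24 (n = 2), a difference of 4.76 points from OPCs with the same exact permutation p of 0.2, or 0.4 adjusted. Libraries that do not overlap, as here, give the smallest p this two-sided test allows with 3 against 2 libraries, which is 0.2. OLs and astrocytes differed by 0.623 points, with astrocytes higher, with an exact permutation p of 1, where 2 against 2 libraries allow no p below 1 in 3. A share within leucine also depends on the pools outside the box. Leu-TAA averaged 50.1% of leucine tRNA in OPCs, 42.9% in OLs and 43.3% in astrocytes. Leu-CAA, also outside the box, averaged 17.2%, 20.2% and 19.3%. Both its OL libraries were above the OPC libraries, so in OLs a larger share was not particular to the box. Its astrocyte libraries, 17.1% and 21.5%, overlapped the OPC libraries, which ran from 16.2% to 17.7%. In OLs against OPCs the log2 share differences were -0.22 for Leu-TAA and 0.24 for Leu-CAA (adjusted p = 0.0521 in limma for each).

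The summed level of the box was 20798, 18526 and 19980 RPM in OPCs, 21522 and 23411 RPM in OLs, and 20524 and 22663 RPM in astrocytes. Both OL libraries were above the OPC libraries, while the astrocyte libraries overlapped them. As a share of cytosolic tRNA, however, the lower OL library (2.231%) was just below the highest OPC library (2.232%), so OLs overlapped OPCs too. That share averaged 2.11% in OPCs, 2.33% in OLs and 2.34% in astrocytes. In RPM the OL mean was 13.6% above the OPC mean, with an exact permutation p of 0.2. The astrocyte mean was 9.23% above the OPC mean, with an exact permutation p of 0.4. All leucine tRNAs together summed to 60407 ± 1224 RPM (SD, n = 3) in OPCs, 60955 ± 1503 RPM (n = 2) in OLs and 57619 ± 584 RPM (n = 2) in astrocytes. The OL mean of the box was 4.04% above the astrocyte mean (exact permutation p of 0.667), a direction that reversed under both other scalings, with differences of -85.8 and -806 RPM in place of 873 RPM.

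**Figure D2:**
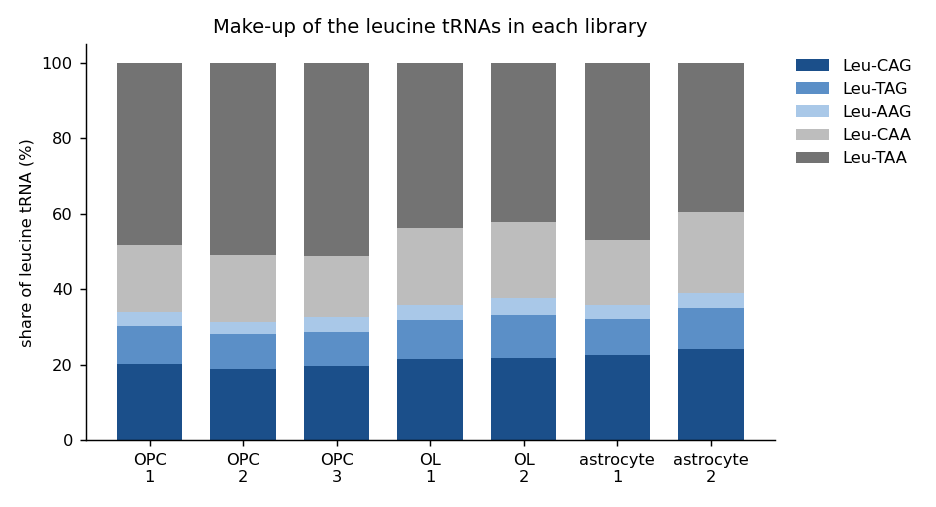
Share of each leucine anticodon in all leucine tRNA RPM, in percent (vertical axis), as one stacked bar per library. The blue parts are the 3 pools of the 4-codon box and the grey parts Leu-CAA and Leu-TAA. The blue parts together reach 31.4% to 34% in OPCs and 35.9% to 39.1% in OLs and astrocytes.

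The share of each pool in leucine was also tested, in one limma fit of 39 anticodon shares. Leu-CAG took 19.7% ± 0.681 (SD, n = 3) of leucine tRNA in OPCs, 21.7% ± 0.2 (n = 2) in OLs and 23.4% ± 1.04 (n = 2) in astrocytes, and no library of one group overlapped another group. Its log2 difference from OPCs was 0.14 (SE 0.043, adjusted p = 0.12 in limma) in OLs and 0.25 (SE 0.053, adjusted p = 0.106) in astrocytes, with 95% intervals from 0.03 to 0.25 and from 0.11 to 0.39. The difference of OLs from astrocytes was -0.11 (SE 0.049, adjusted p = 0.351 in limma). Leu-TAG took 9.47% ± 0.618, 10.9% ± 0.674 and 10.2% ± 1.03 in the 3 groups, with a log2 difference of 0.21 (SE 0.073, adjusted p = 0.126 in limma) between OLs and OPCs. Leu-AAG took 3.57% ± 0.442, 4.21% ± 0.41 and 3.83% ± 0.181, and overlapped in all 3 comparisons.

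No share of a pool in leucine passed an adjusted p of 0.01. In each of the 3 comparisons 0% of the 39 shares did, and 12, 6 and 6 of them had an unadjusted p under 0.05 in OLs against OPCs, astrocytes against OPCs and OLs against astrocytes. Shares did not overlap for 2 of the 3 pools between OLs and OPCs, beside 46.2% of all shares. For astrocytes against OPCs this held for 1 pool, beside 23.1%, and for OLs against astrocytes for 1 pool, beside 53.8%.

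The other leucine pools gave differences in both directions. Leu-TAA, which reads UUA and UUG, was lower by 0.21 on the log2 scale in OLs than in OPCs (SE 0.033, adjusted p = 0.0428 in limma), short of the threshold of 0.01. Leu-CAA, which reads UUG, was higher by 0.25 (SE 0.052, adjusted p = 0.0609). In astrocytes against OPCs the values were -0.28 (SE 0.084, adjusted p = 0.303) for Leu-TAA and 0.09 (SE 0.12, adjusted p = 0.69) for Leu-CAA. None of the 5 leucine pools passed the threshold in a comparison here. The study, which used DESeq2 with a threshold of 0.01, reported Leu-UAA, the pool named Leu-TAA here, as lower in OLs than in OPCs.

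Wider groups of anticodons gave the members a context. Of 8 anticodons with an A at the first position, which are read as inosine, 0 passed the threshold in any comparison. Between OLs and OPCs 5 of the 8 were higher and 3 lower, from -0.29 for Pro-AGG to 0.38 for Ile-AAT, and Leu-AAG at 0.25 was near the median of 0.21. Of 11 anticodons of tRNAs with a long variable arm, 7 were higher and 4 lower in OLs, from -0.36 for Ser-GGA to 0.61 for SeC-TCA, with 0 past the threshold and a median of 0.17. Both counts of higher anticodons were near the share over all 52 pools, of which 65.4% were higher in OLs than in OPCs. The A-starting anticodons had a median of -0.01 in astrocytes against OPCs and of 0.12 in OLs against astrocytes. The long-arm group had -0.11 and 0.18 in these comparisons, with 0 past the threshold.

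Each pool was led by 1 or 2 isodecoders. Leu-CAG-2, with 3 identical genes, held 79.9% of its pool over all libraries, while Leu-CAG-1, with 5 identical genes, held 15.9%. Leu-CAG-2 read 9916, 8942 and 9699 RPM in OPCs, 10238 and 10753 RPM in OLs, and 10463 and 11235 RPM in astrocytes. Leu-CAG-1 read 1967, 1700 and 1903 RPM in OPCs, 2168 and 2206 RPM in OLs, and 1996 and 2224 RPM in astrocytes. For both, all OL and astrocyte libraries were above all OPC libraries. Leu-CAG-4, with 1 gene, held 4.1% of the pool and read 516, 522 and 464 RPM in OPCs, 504 and 575 RPM in OLs, and 516 and 553 RPM in astrocytes, with all groups overlapping.

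In the Leu-TAG pool each isodecoder has 1 gene, and the shares were unequal. Leu-TAG-3 held 51.7% of the pool, Leu-TAG-1 37.4% and Leu-TAG-2 11%. Leu-TAG-3 read 3265, 2797 and 2645 RPM in OPCs, 3301 and 3720 RPM in OLs, and 2882 and 3251 RPM in astrocytes. Leu-TAG-1 read 2252, 2055 and 2069 RPM in OPCs, 2273 and 2500 RPM in OLs, and 2084 and 2528 RPM in astrocytes. For both the OL libraries lay just above the OPC libraries and the astrocyte libraries overlapped them. Leu-TAG-2 read 694, 650.4 and 737 RPM in OPCs, 679.7 and 847 RPM in OLs, and 456 and 563 RPM in astrocytes. It was lower in both astrocyte libraries than in any other library.

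In the Leu-AAG pool Leu-AAG-1, with 3 identical genes, held 57.7% and Leu-AAG-3, with 1 gene, 40.2%. Leu-AAG-1 read 1302, 1059 and 1542 RPM in OPCs, 1392 and 1625 RPM in OLs, and 1111 and 1238 RPM in astrocytes. Leu-AAG-3 read 835, 769 and 878 RPM in OPCs, 907 and 1082 RPM in OLs, and 942 and 1007 RPM in astrocytes. Leu-AAG-3 was above OPCs in all OL and astrocyte libraries, while Leu-AAG-1 overlapped OPCs in both comparisons. The remaining isodecoders, Leu-AAG-2 and Leu-CAG-3, were much lower, with means of 49.4 and 11.7 RPM, and had from 37 to 150 and from 12 to 31 reads per library. All 10 isodecoders had a mean above 1 RPM and were tested, and none was at or below 3 reads in a library, which is 1.14 to 2.24 RPM.

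Divided by gene copies, the 10 isodecoders covered a wide range. Leu-CAG-2 reached 3393 RPM per gene copy over all libraries and Leu-TAG-3 3123 RPM, while Leu-CAG-3 had 11.7 RPM from its 1 gene. Leu-CAG-1, the isodecoder with the most copies, had 405 RPM per copy, and Leu-AAG-1 441 RPM. By total level the order was Leu-CAG-2, Leu-TAG-3, Leu-TAG-1, Leu-CAG-1, Leu-AAG-1, Leu-AAG-3, Leu-TAG-2, Leu-CAG-4, Leu-AAG-2 and Leu-CAG-3. Neighbours in it did not overlap within OPCs or within OLs. In astrocytes Leu-TAG-1 and Leu-CAG-1 overlapped, as did Leu-TAG-2 and Leu-CAG-4. Only reads with a mapping quality of at least 10 were counted, so reads that fit several near-identical isodecoders equally may have been lost or exchanged. Levels, shares and RPM per copy are those of the reads kept.

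**Figure D3:**
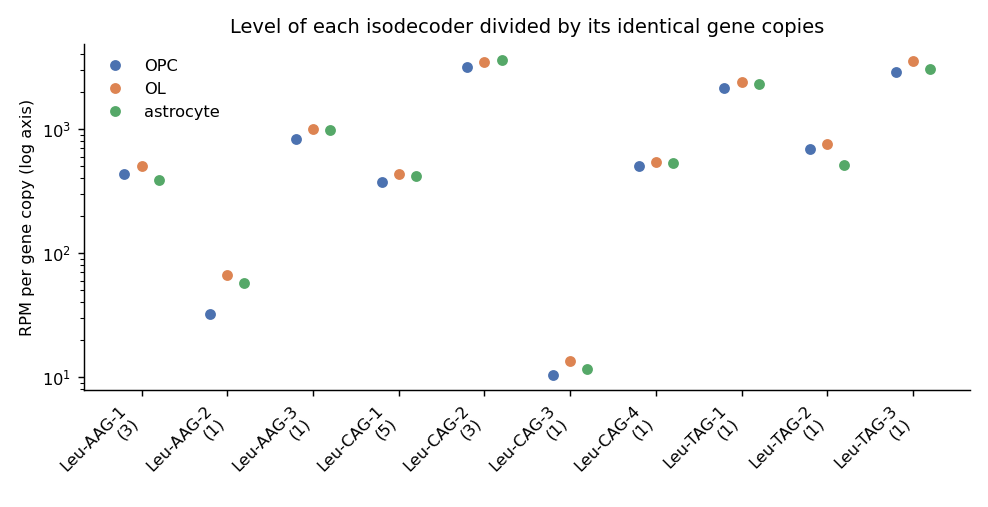
Mean RPM per identical gene copy (vertical log axis) of the 10 isodecoders, with the number of copies in brackets and one point per cell type. Leu-CAG-2 and Leu-TAG-3 are at the top, with 3393 and 3123 RPM per copy over all libraries, and Leu-CAG-3 is at the bottom with 11.7 RPM.

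All 10 isodecoders had a positive log2 change from OPCs to OLs, from 0.11 for Leu-CAG-4 to 1.02 for Leu-AAG-2, beside 59.9% of the 192 isodecoders tested. Their median change was 0.23 and that of all isodecoders 0.09, and all 10 lay above the latter. None passed an adjusted p of 0.01 in limma, beside 5.73% of all isodecoders. At an unadjusted p under 0.05 there was 1 of the 10, against 63 of the 192. Libraries did not overlap for 6 of the 10, beside 53.1% of all isodecoders. All 6 were higher in OLs, beside 30.2%. Overlap was counted on RPM alone, and the box sum, apart on RPM, overlapped between OLs and OPCs as a share of cytosolic tRNA. Leaving out OL replicate 2 turned the change of Leu-TAG-2 and of Leu-CAG-3 negative, at -0.03 and -0.18.

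Between astrocytes and OPCs 8 of the 10 were positive, beside 52.1% of all, with a median of 0.15 against 0.01 over all isodecoders. The negative ones were Leu-AAG-1 at -0.13 and Leu-TAG-2 at -0.45. None passed the threshold, which 0% of the 192 did, and 2 of the 10 had an unadjusted p under 0.05, against 40 of the 192. Libraries did not overlap for 5 of the 10, beside 39.6%. Between OLs and astrocytes 9 of the 10 were positive, but 4 of these turned negative under both other scalings, namely Leu-TAG-1, Leu-AAG-3, Leu-CAG-4 and Leu-CAG-1. The median was 0.08, below the 0.11 of all isodecoders. None passed the threshold, beside 6.25% of all, with 1 of the 10 at an unadjusted p under 0.05 against 52 of the 192. Libraries did not overlap for 3 of the 10, beside 60.4%.

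**Figure D4:**
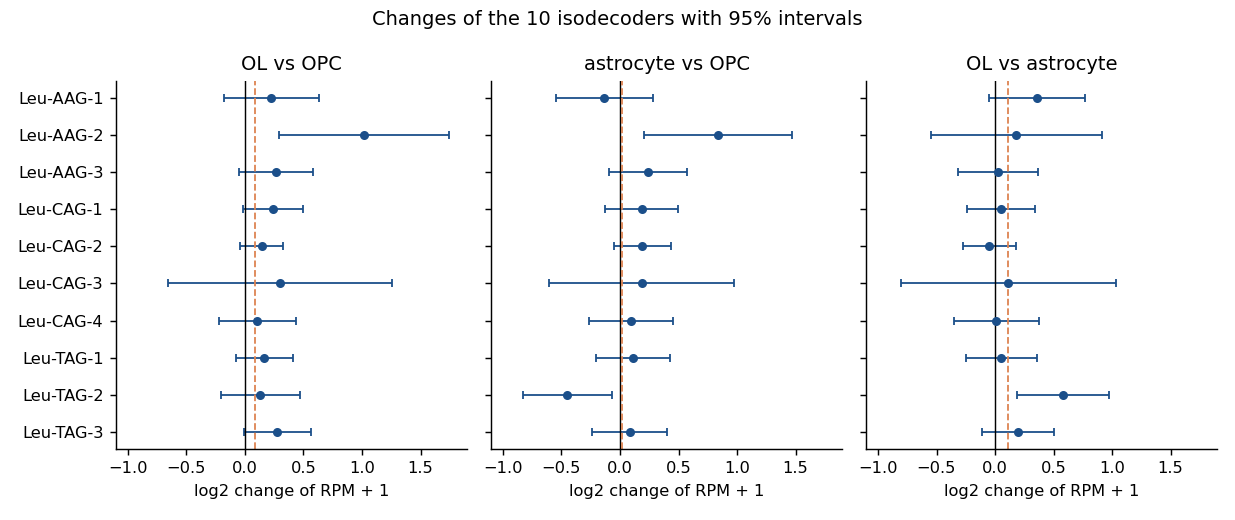
Log2 difference of RPM + 1 (horizontal axes) of the 10 isodecoders in the 3 comparisons, as points with 95% intervals from limma. The black line is 0 and the dashed line the median of all 192 isodecoders, 0.09, 0.01 and 0.11 from left to right. The intervals of Leu-AAG-2 lie above 0 in the comparisons with OPCs, and those of Leu-TAG-2 lie below 0 in astrocytes against OPCs and above 0 in OLs against astrocytes.

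Leu-TAG-2 and Leu-AAG-2 had the largest differences. Both were picked out with their values in view. Leu-TAG-2 differed by -0.45 between astrocytes and OPCs (SE 0.17, adjusted p = 0.166 in limma, 95% interval from -0.83 to -0.07). Between OLs and astrocytes it differed by 0.58 (SE 0.18, adjusted p = 0.0617 in limma, 95% interval from 0.19 to 0.97). Leu-AAG-2 read 35.8, 24.5 and 35.8 RPM in OPCs, 49.7 and 84.7 RPM in OLs, and 64 and 51 RPM in astrocytes, and every OL and astrocyte library was above every OPC library. It differed from OPCs by 1.02 in OLs (SE 0.31, adjusted p = 0.056 in limma) and by 0.84 in astrocytes (SE 0.28, adjusted p = 0.131). The OL and astrocyte libraries of Leu-AAG-2 overlapped.

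Shares within a pool do not depend on the scaling of RPM between libraries, apart from the pseudocount, and so describe the isodecoders apart from the level of the pool. Leu-TAG-2 held 12.2% ± 1.21 (SD, n = 3) of its pool in OPCs, 11.4% ± 0.793 (n = 2) in OLs and 8.65% ± 0.335 (n = 2) in astrocytes. The astrocyte libraries, at 8.41% and 8.88%, were below all others, of which the lowest was an OL library at 10.9%. The log2 difference of the share was -0.49 between astrocytes and OPCs (SE 0.1, adjusted p = 0.0844 in limma) and 0.40 between OLs and astrocytes (SE 0.11, adjusted p = 0.0836). Leu-TAG-1 had a share of 39.2% ± 1 in astrocytes and 35.9% ± 0.69 in OLs, a log2 difference of OLs from astrocytes of -0.13 (SE 0.038, adjusted p = 0.106 in limma).

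In the Leu-AAG pool the shares also stood apart in astrocytes. Leu-AAG-1 held 60% ± 2.81 in OPCs, 58.7% ± 0.749 in OLs and 53.2% ± 1.02 in astrocytes, and Leu-AAG-3 held 38.6% ± 2.88, 38.7% ± 0.0986 and 44.2% ± 0.452. In both cases the astrocyte libraries lay outside the range of the other 5. The log2 differences between astrocytes and OPCs were -0.17 (SE 0.054, adjusted p = 0.171 in limma) for Leu-AAG-1 and 0.20 (SE 0.076, adjusted p = 0.239) for Leu-AAG-3. Leu-AAG-2 held 1.48% ± 0.164 in OPCs, 2.57% ± 0.651 in OLs and 2.62% ± 0.566 in astrocytes, with log2 differences from OPCs of 0.76 (SE 0.2, adjusted p = 0.0845 in limma) and 0.80 (SE 0.18, adjusted p = 0.0947). In the Leu-CAG pool Leu-CAG-2 held between 79.2% and 80.6% in all 7 libraries and Leu-CAG-1 between 15.2% and 16.8%. The smaller shares had wider ranges for their size, from 3.84% to 4.67% for Leu-CAG-4 and from 0.0681% to 0.133% for Leu-CAG-3.

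**Figure D5:**
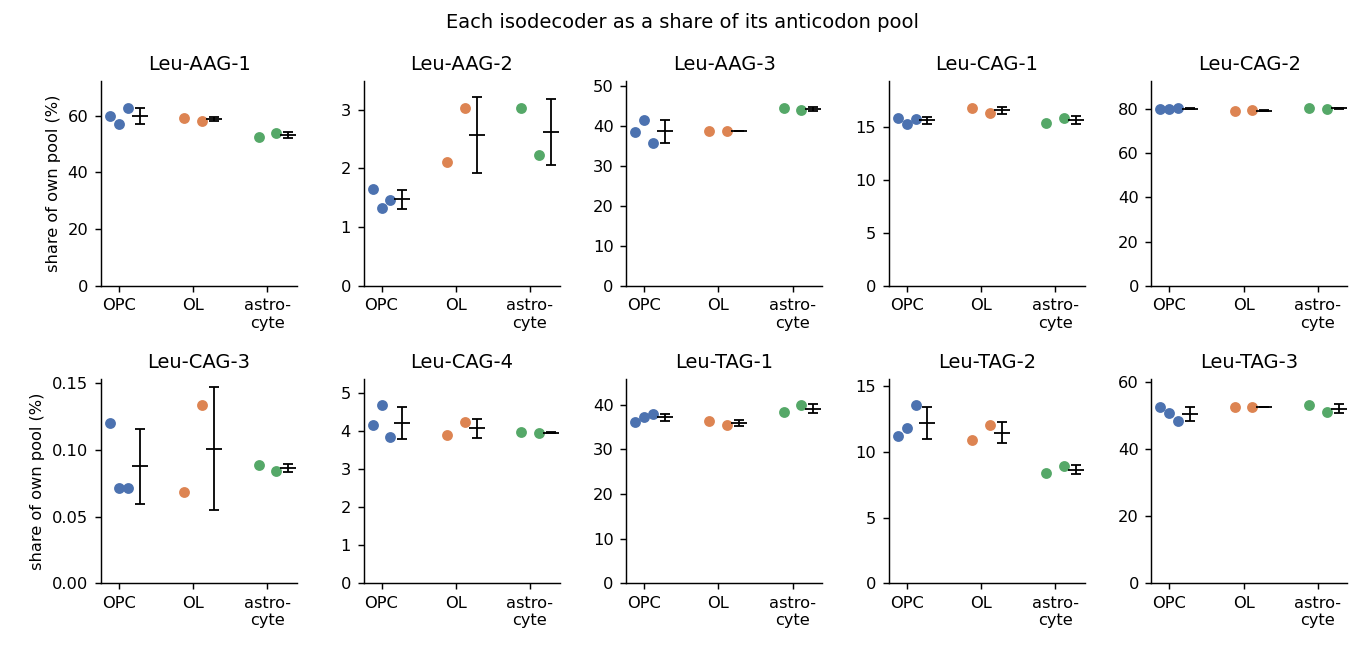
Share of each isodecoder in the RPM of its own anticodon pool, in percent (vertical axes, from 0), by cell type. Points are libraries and the bars beside them the mean and SD. Leu-TAG-2 and Leu-AAG-1 are lowest and Leu-AAG-3 highest in both astrocyte libraries, while Leu-CAG-2 stays between 79.2% and 80.6%.

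No share within a pool passed an adjusted p of 0.01 among the 10 isodecoders, of 184 shares tested. Among all shares 2.17% did in OLs against OPCs, 0% in astrocytes against OPCs and 3.8% in OLs against astrocytes. At an unadjusted p under 0.05 there were 1, 3 and 3 of the 10 in these comparisons, against 57, 43 and 50 of the 184. Shares did not overlap between groups for 4, 5 and 6 of the 10, beside 55.4%, 43.5% and 58.7% of all shares. Counting error on a share within a pool was at most 1.83 percentage points either way as a 95% Wilson interval.

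The pools did not closely track each other across libraries. As a description over 7 libraries, which share depth and scaling, the Pearson correlation of log2(RPM + 1) was 0.631 between Leu-AAG and Leu-CAG, 0.673 between Leu-AAG and Leu-TAG and 0.656 between Leu-CAG and Leu-TAG. For each pool other anticodons were closer. The nearest to Leu-AAG were Thr-TGT (0.909) and Ser-GCT (0.874), to Leu-CAG Ile-AAT (0.857) and Pro-TGG (0.786), and to Leu-TAG Leu-CAA (0.899) and SeC-TCA (0.782).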

How the data were processed

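tRNA was sequenced in 7 libraries, with groups and replicate numbers from the labels. By the study's methods, the authors trimmed reads with cutadapt, mapped them with bowtie2 to high-confidence GtRNAdb mature tRNAs of mm10 with identical genes collapsed, counted them strand-specifically with featureCounts at a mapping quality of at least 10, and deposited the values as RPM per isodecoder and summed per anticodon. Deposited tables of the authors' own DESeq2 comparisons hold fold changes and p-values and were not used.

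Each RPM value equalled a whole number of reads times a constant of its library (within 0.01 read), which gave the depth. The deposited unit is RPM, and no count test was run on the reads. Values of log2(RPM + 1) entered two-sided limma tests (version 3.58.1, R 4.3.3), where levels but not shares had a variance trend, with Benjamini-Hochberg adjustment over all tRNAs tested, with the threshold at an adjusted p of 0.01. On this scale the change of low tRNAs is understated. Isodecoders needed a mean of at least 1 RPM. Comparisons with OPCs used the libraries of those groups, and OLs were set against astrocytes in a fit of all 7. Box sums and box shares of leucine were compared by two-sided exact permutation tests with scipy 1.17.1. Pipelines were tested on simulated data.

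Replicates of a group differed beyond counting error in every pair. Wilson intervals and the limit of 3 reads cover counting error only. Isodecoders averaging 100 RPM or more, or with an adjusted p under 0.05, have their value in every library given. Members and context lists were chosen with earlier results of these data known. Gene positions came from RefSeq on GRCm38.p6 and their context from GENCODE. The alternatives changed the pseudocount (0.1, 10), the filter (none, 100 RPM), the scaling (to listed tRNAs, median of ratios), the trend, the threshold (0.05), which libraries were fitted (leaving out each in turn included), or added a replicate block.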

Additional observations from a re-analysis of the deposited data

How the results depend on the processing

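No pool, isodecoder or share of the box passed an adjusted p of 0.01 under any alternative in which a replicate block was not used, and the lowest adjusted p over them was 0.153 for pools, 0.0271 for isodecoders, 0.0345 for shares of leucine and 0.0373 for shares of a pool. At a threshold of 0.05 the members called stayed at 0, while 35, 14 and 18 of the 192 isodecoders were called in the order OLs against OPCs, astrocytes against OPCs and OLs against astrocytes. The difference of the box sum between OLs and astrocytes became -85.8 RPM after rescaling to the listed tRNAs and -806 RPM with median-of-ratios scaling, and both left 5 of the 10 isodecoders positive where there had been 9. The number of positive isodecoders was 10 between OLs and OPCs and 8 between astrocytes and OPCs under each alternative that kept all libraries and all 10 isodecoders.

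Leaving out 1 library at a time turned some small differences. Between astrocytes and OPCs the change of Leu-AAG ran from -0.067 to 0.14 and that of Leu-TAG from -0.075 to 0.15. Between OLs and astrocytes that of Leu-CAG ran from -0.084 to 0.027, the share of Leu-TAG in leucine from -0.0027 to 0.20, the box sum from -196 to 1942 RPM, the share of the box from -2.21 to 0.964 points and the number of positive isodecoders from 4 to 10. Between OLs and OPCs Leu-TAG-2 ran from -0.027 to 0.29 and Leu-CAG-3 from -0.18 to 0.78.

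The labels do not say that replicate numbers mark pairs, and the study's methods do not name the OPC libraries from which the OLs came. Deviations of same-numbered libraries correlated between -0.41 and 0.37 over anticodons, but in groups of 2 deviations mirror each other, so this shows neither pairing nor its absence. With a replicate block 1 isodecoder was called between astrocytes and OPCs, Leu-AAG-2 at 0.92 (limma adjusted p = 0.00428), and no other call changed. Depth limits Leu-CAG-3 most, with 12 reads in its lowest library. Whether tRNAs listed at 0 stayed in the anticodon fit, an alternative added after the data were seen, changed no call.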
